A study of Homo sapiens with 6 samples.

Results

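The TGF-beta pathway was read at the level of mRNA in irradiated breast cancer cells through 9 of its genes. These were the ligands TGFB1, TGFB2 and INHBA, the receptors TGFBR1 and TGFBR2, the signal carrier SMAD3, the inhibitors SMAD7 and SKIL, and the target gene TGFBI. They were taken by symbol from the deposited expression table, where each of the 9 names matched 1 of the 58735 rows. All 9 were among the 12128 genes whose mean over the libraries reached 1 FPKM (fragments per kilobase of gene, scaled to sequencing depth), and these 12128 were tested together. Of the 9, 3 genes rose 24 h after 10 Gy, namely TGFBR1, SMAD3 and TGFBI, and 2 genes fell, namely TGFB2 and SMAD7. In bulk RNA, fewer cells that make a transcript and less of it per cell cannot be told apart. The changes were small, between a ratio of 0.704 for TGFB2 and a ratio of 1.22 for TGFBR1.

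TGF-beta ligands are secreted in a latent form bound to their own propeptide and to matrix proteins, and once released they bring together the receptors TGFBR2 and TGFBR1. TGFBR2 then phosphorylates TGFBR1, which phosphorylates SMAD2 and SMAD3, and these enter the nucleus with SMAD4 to change transcription. In normal epithelium the pathway restrains growth, whereas in basal-like breast cancer cells it is known for its part in invasion and in the mesenchymal phenotype, and ionizing radiation is known to release active TGF-beta from its latent form, a step that mRNA does not show.

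The cells were MDA-MB-231, a human line derived from a breast adenocarcinoma of basal-like type. All 6 libraries came from cells with the non-targeting shRNA control shSCR, for which the labels give the sample names as SCR and the genotype as WT. The control group held 3 libraries of cells at 0 Gy. The irradiated group held 3 libraries of cells given 10 Gy of gamma rays from a caesium source, with RNA taken 24 h later for polyA-selected libraries. The labels do not say whether the 3 libraries of a dose came from separate cultures, so p-values measure the spread between these libraries, which may be technical. The line was the only one in these files and carried a stable hairpin, so the values describe that one line.

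Whole reads recovered from the FPKM values summed to between 15643641 and 28861781 per library. The epithelial and mesenchymal genes fixed as markers of the line, VIM, CD44, AXL, KRT8, KRT18 and EGFR, were all detected, with mean levels at 0 Gy between 29.8 and 301 FPKM, and ESR1 and PGR summed to no more than 0.0169 FPKM in any library. Of the 6 detected markers, VIM, CD44 and AXL were called lower at 10 Gy and 3 were not called. The log2 changes were -0.26 for VIM, -0.11 for CD44 and -0.49 for AXL with FPKM as deposited. Their calls under other scalings are not given here, and the fall of CD44 was smaller than the median shift with TPM given below. Of the 7 fibroblast markers, the summed level was 3.55 to 3.94 FPKM at 0 Gy and 4.10 to 4.39 FPKM at 10 Gy. Most of it came from COL6A3, PDGFRB and THY1, whereas COL3A1, PDGFRA, LUM and DPT stayed at or under 0.0461 FPKM. The 6 leukocyte markers summed to 1.57 to 2.61 FPKM at 0 Gy and to 2.09 to 3.23 FPKM at 10 Gy, almost all of it CD14, with CD3E listed at 0 in every library. Only 3 of the 7 fibroblast markers and 1 of the 6 leukocyte markers reached the filter and were tested. None of those tested was called, and the part of these cell types in the results was not tested. The depth by which each library had been divided was 0.973 to 0.991 times its recovered reads at 0 Gy and 1.03 to 1.04 times at 10 Gy, so the scaling already in the values moved with the dose. Scaling to TPM raised the median log2 change of plain FPKM by 0.128 over 12062 genes. On the log2(FPKM + 1) scale used below, the median went from -0.04 to 0.07. The behaviour of the members and the lists under other scalings is therefore given below.

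Doses were compared on the log2(FPKM + 1) scale with limma, and a gene was called where the p-value adjusted by Benjamini-Hochberg over the 12128 genes was under 0.05. On this scale the median change over all genes was -0.04. Over all genes, 11.9% were called higher and 23.7% lower at 10 Gy, 5.77% were called with a change of at least 1.3-fold, and at 51.9% the libraries of the doses did not overlap. Against this background 3 of the 9 members were called higher, 2 lower and 4 not called, 1 was called with at least 1.3-fold, and at 5 of 9 the libraries did not overlap. The median change of the 9 members was 0.01. The share of called genes that were higher depended on the scaling over all genes, from 33.4% with FPKM as deposited to 74.5% with TPM, but among the members it was 3 higher and 2 lower under each of the 4 other scalings run.

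The member that fell most was TGFB2, and the bases before its start are shown. They carry the letters of CAGAC, a motif that factors of the pathway are known to bind, and of a TATA box. Whether any factor binds there was not tested. RefSeq lists a single start for TGFB2, at chr1:218345336 on the plus strand of GRCh38.p14, and the 250 bases before it are chr1:218345086-218345335. Capitals mark CAGAC, the short site that SMAD3 and SMAD4 bind, and TATAAA, the TATA box, each searched on both strands.

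TGFB2: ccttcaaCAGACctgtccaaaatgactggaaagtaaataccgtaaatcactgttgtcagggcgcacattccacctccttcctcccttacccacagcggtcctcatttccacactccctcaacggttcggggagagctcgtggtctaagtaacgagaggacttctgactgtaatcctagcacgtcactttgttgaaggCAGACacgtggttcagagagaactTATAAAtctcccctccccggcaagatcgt

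CAGAC stood 243 and 53 bases before that start and TATAAA 29 bases before it. CAGAC is a common run of letters, held by 38.0% of the 35116 windows of that length in the RefSeq table, and TATAAA was held by 10.7%. The 9 members had 23 such windows, of which 10, or 43.5%, held CAGAC. TGFBR1 alone had 8 of these windows and SMAD3 had 5. Some windows of TGFBR1 overlap, so the same site can be counted more than once. The single windows of TGFB1, INHBA and TGFBI held none, and that of SKIL held it once, 107 bases before the start. The full palindrome GTCTAGAC was in no window of a member and in 0.182% of all windows, and TGANTCA, the AP-1 site, was in 1 window of SMAD3 and in 6.57% of all. The RefSeq start of TGFB2 lies 899 bases before the start of the gene in the deposited table, and FPKM per gene do not tell which start was used.

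Among the ligands, TGFB1 and TGFB2 behaved differently. TGFB1, the most widely made TGF-beta, lies at chr19:41301587-41353911 on the minus strand. It was at 41.7, 37.7 and 37.2 FPKM in the 3 libraries at 0 Gy and at 38.8, 38.6 and 37.0 FPKM at 10 Gy. The libraries of the doses overlapped, with means of 38.9 ± 2.43 (SD, n = 3) and 38.1 ± 0.962 (SD, n = 3) FPKM. The log2 change of TGFB1 was -0.03 with a 95% interval from -0.14 to 0.09 (limma, adjusted p = 0.705), and its sign turned under all 4 other scalings. It shares bases with 4 genes on the opposite strand, HNRNPUL1, CCDC97, TMEM91 and AC011462.1, and whether reads were counted by strand is not given in the sources used here. HNRNPUL1, the most abundant of these, went from 80.6 to 72.5 FPKM.

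TGFB2, a ligand with its own binding requirements at the receptors, lies at chr1:218346235-218444619 on the plus strand. Its levels were 16.1, 17.5 and 17.0 FPKM at 0 Gy and 11.3, 11.7 and 12.6 FPKM at 10 Gy. Every irradiated library lay below every control library. The mean fell from 16.9 ± 0.727 to 11.9 ± 0.671 FPKM (SD, n = 3 each), a log2 change of -0.47 with a standard error of 0.0496 (limma, adjusted p = 0.000978). With FPKM as deposited, TGFB2 was the only one of the 9 members past 1.3-fold on this scale. With TPM its log2 change was -0.35, under 1.3-fold, and that of TGFBR1 was 0.39, past it. With a pseudocount of 0.1 in place of 1, SMAD7 was past it as well, at -0.39. Between 1388 and 1897 reads lay behind each value at 0 Gy and between 1101 and 1743 at 10 Gy. TGFB2-OT1, which lies within the gene on the same strand, was listed at 0 in every library.

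INHBA encodes the subunit of activin A, a related ligand that signals through activin receptors to the same SMADs, and lies at chr7:41667168-41705834 on the minus strand. It was the lowest of the members, at 1.36, 1.25 and 1.16 FPKM at 0 Gy and 1.43, 1.29 and 1.66 FPKM at 10 Gy. The libraries of the doses overlapped. The log2 change was 0.12 with a 95% interval from -0.06 to 0.31 (limma, adjusted p = 0.26), on 160 to 355 reads per library.

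**Figure D1:**
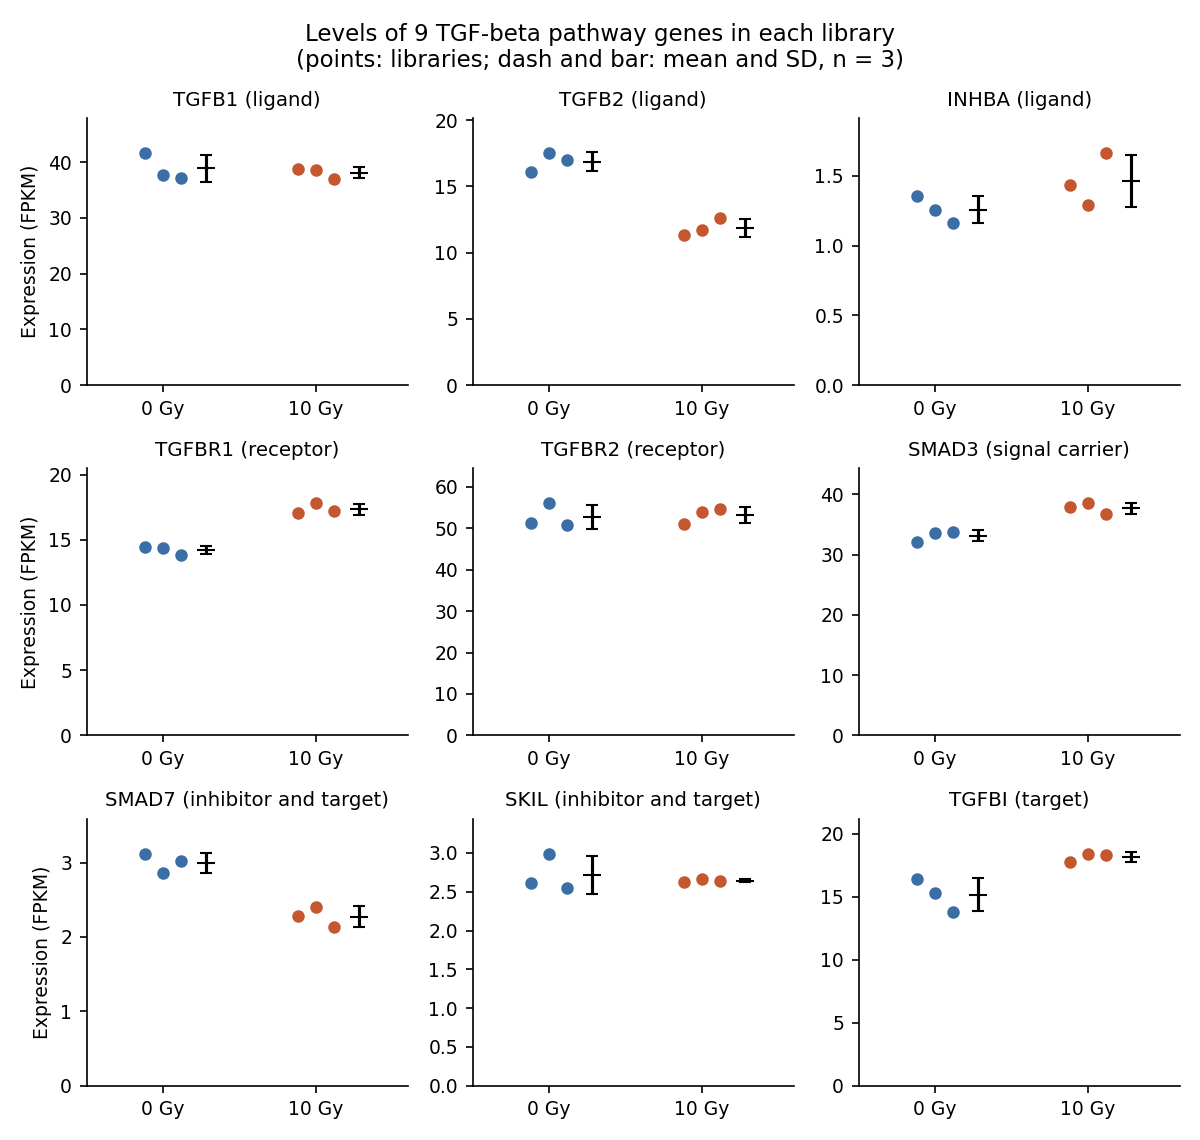
Expression (FPKM, vertical axis from 0) of the 9 genes at 0 Gy (blue) and 10 Gy (orange); each point is 1 library, and the dash and bar give the mean and SD of 3 libraries. The points of the doses are apart for TGFB2, TGFBR1, SMAD3, SMAD7 and TGFBI, and overlap for TGFB1, INHBA, TGFBR2 and SKIL.

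Of the receptors, TGFBR1 rose and TGFBR2 was not called. TGFBR1, the kinase that passes the signal to SMAD2 and SMAD3, lies at chr9:99104038-99154192 on the plus strand. It was at 14.4, 14.4 and 13.8 FPKM at 0 Gy and at 17.0, 17.8 and 17.2 FPKM at 10 Gy. All irradiated libraries were above all controls, and the spread within a dose was small, with a coefficient of variation of 2.30% and 2.39%. The mean rose from 14.2 ± 0.327 to 17.3 ± 0.414 FPKM (SD, n = 3 each), a log2 change of 0.27 with a standard error of 0.0338 (limma, adjusted p = 0.00182).

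TGFBR2, the receptor that binds the ligand, lies at chr3:30606502-30694142 on the plus strand and was the most abundant of the 9 members. Its levels were 51.3, 56.1 and 50.9 FPKM at 0 Gy and 51.1, 53.9 and 54.6 FPKM at 10 Gy, and the libraries overlapped. The means were 52.8 ± 2.88 and 53.2 ± 1.84 FPKM (SD, n = 3 each). The log2 change was 0.01 with a 95% interval from -0.10 to 0.12 (limma, adjusted p = 0.851), and its sign turned when control library 1, control library 3 or irradiated library 3 was left out.

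SMAD3, the transcription factor that the receptor activates, lies at chr15:67063763-67195195 on the plus strand. It was at 32.1, 33.6 and 33.7 FPKM at 0 Gy and at 37.9, 38.5 and 36.7 FPKM at 10 Gy, without overlap. The mean rose from 33.2 ± 0.903 to 37.7 ± 0.943 FPKM (SD, n = 3 each), a log2 change of 0.18 with a standard error of 0.0341 (limma, adjusted p = 0.00744). The log2 change of SMAD3 was larger under the other scalings, between 0.23 with median-of-ratios and 0.30 with TPM. SMAD3 had the most reads of the members, 4713 to 10320 per library. The antisense gene AC012568.1 within it held 1 to 2 reads per library at 0 Gy and 4 to 14 at 10 Gy, and the antisense gene AC087482.1, which overlaps its start, held 3 to 26.

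The inhibitors SMAD7 and SKIL are themselves switched on by the pathway. SMAD7 blocks SMAD3 at the receptor and brings in ubiquitin ligases, and lies at chr18:48919853-48952052 on the minus strand. It was at 3.12, 2.86 and 3.02 FPKM at 0 Gy and at 2.29, 2.41 and 2.13 FPKM at 10 Gy, so that every irradiated library was lower. The mean fell from 3.00 ± 0.133 to 2.27 ± 0.139 FPKM (SD, n = 3 each). The log2 change was -0.29 with a standard error of 0.0569 (limma, adjusted p = 0.00847), on 221 to 344 reads per library. At this low level the added 1 FPKM shrinks the change, and the ratio of the means was 0.758. The fall of SMAD7 was smaller under the other scalings. It was -0.20 with TPM (limma, adjusted p = 0.0431) and -0.22 with the upper quartile (limma, adjusted p = 0.0246).

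SKIL, a repressor that binds SMAD3 and SMAD4 at target genes, lies at chr3:170357678-170396835 on the plus strand. It was at 2.61, 2.99 and 2.55 FPKM at 0 Gy and at 2.63, 2.67 and 2.64 FPKM at 10 Gy. The irradiated libraries all lay within the range of the controls. The log2 change of SKIL was -0.03 with a 95% interval from -0.17 to 0.11 (limma, adjusted p = 0.749), and its sign turned under all 4 other scalings.

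TGFBI, a secreted matrix protein named for its induction by TGF-beta, lies at chr5:136028895-136063818 on the plus strand. It was at 16.4, 15.3 and 13.8 FPKM at 0 Gy and at 17.7, 18.4 and 18.3 FPKM at 10 Gy. The lowest irradiated library was above the highest control, and the controls were spread more widely. The mean rose from 15.2 ± 1.301 to 18.2 ± 0.385 FPKM (SD, n = 3 each), a log2 change of 0.25 with a standard error of 0.0585 (limma, adjusted p = 0.0161). TGFBI was not called without the filter on low genes (adjusted p = 0.0627) or when irradiated library 2 (adjusted p = 0.059) or irradiated library 3 (adjusted p = 0.0503) was left out. The calls of TGFB2, TGFBR1, SMAD3 and SMAD7 held in every setting in which the gene was tested.

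**Figure D2:**
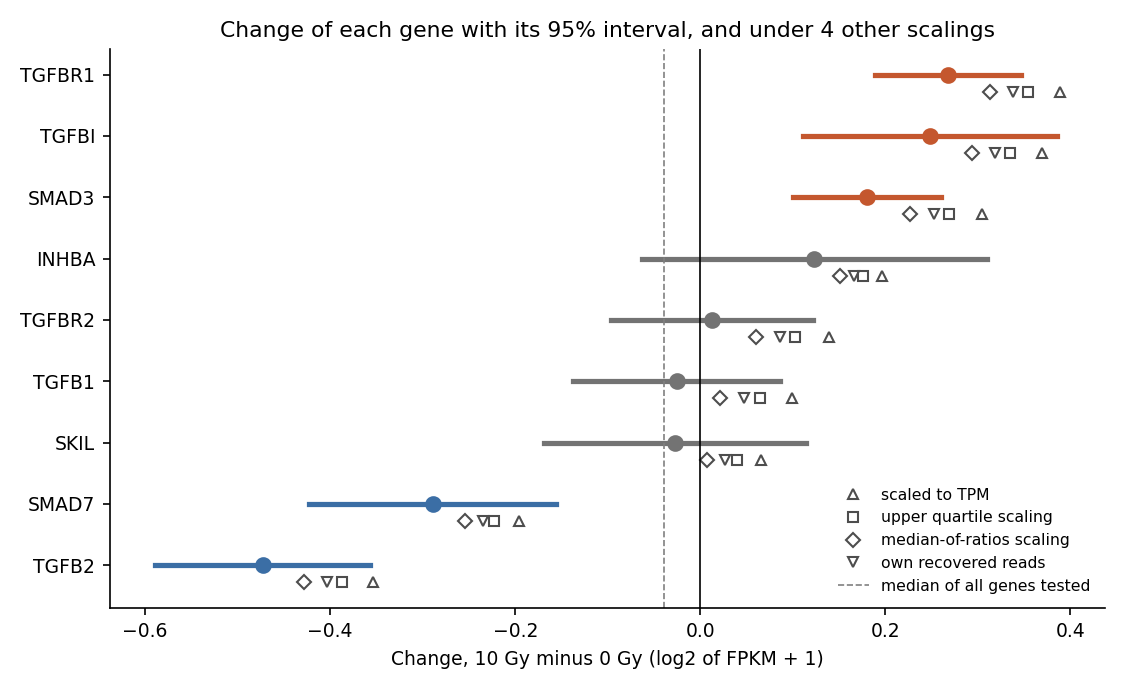
Change of each of the 9 genes at 10 Gy against 0 Gy (horizontal axis, log2 of FPKM + 1); filled points and bars are the change and its 95% interval from limma, in orange for called higher, blue for called lower and grey for not called, and open symbols give the change under 4 other scalings. TGFBR1 at 0.27 and TGFB2 at -0.47 mark the ends, the other scalings lie to the right of each point, and those of TGFB1 and SKIL cross 0.

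Levels between genes were compared per length of gene, as FPKM give them. At 0 Gy the order was TGFBR2, TGFB1, SMAD3, TGFB2, TGFBI, TGFBR1, SMAD7, SKIL and INHBA. The ranges over the 3 libraries overlapped between TGFB2 and TGFBI, between TGFBI and TGFBR1, and between SMAD7 and SKIL, so these neighbours were not separated. At 10 Gy TGFB2 stood below TGFBI and TGFBR1 and SMAD7 stood below SKIL, in both cases without overlap of the ranges between neighbours, while TGFB1 and SMAD3 overlapped, as did TGFBI and TGFBR1. By the mean level over the 6 libraries, TGFBR2 was above 93.2% of the genes tested, TGFB1 above 90.1% and INHBA above 7.03%. FPKM divide reads by the gene length in the table, so a long listed length gives a lower value for the same reads. SMAD2, the partner of SMAD3, was at 0.974 FPKM at 0 Gy over a length of 36366 bases, on 540 to 779 reads. It fell under the filter.

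Ratios between members within a library are free of the scaling of that library. TGFB2 to TGFB1 was 0.386, 0.465 and 0.457 at 0 Gy and 0.292, 0.303 and 0.341 at 10 Gy, a difference of -0.48 in mean log2 ratio. The ratio of TGFBR1 to TGFBR2 was 0.281, 0.257 and 0.272 at 0 Gy and 0.333, 0.331 and 0.314 at 10 Gy, a difference of 0.27. For SMAD7 to SMAD3, the inhibitor against the carrier, the values were 0.0972, 0.0849 and 0.0895 at 0 Gy and 0.0604, 0.0624 and 0.0581 at 10 Gy, a difference of -0.59. In each of the 3 ratios the libraries of the doses did not overlap, and the two-sided exact permutation test gave p = 0.1, the smallest that 3 libraries against 3 allow (0.1 after adjustment over the 3 ratios). These ratios were chosen with earlier results of the data known. TGFB1 and TGFBR2 were not called, so their ratios largely repeat the changes of TGFB2 and TGFBR1. SMAD7 and SMAD3 were called in opposite directions. Among single genes tested 51.9% did not overlap, and the share among other pairs of genes was not counted, so the separation is a description only. Of the summed FPKM of TGFB1, TGFB2 and TGFB3, TGFB2 made up 27.6%, 31.4% and 31.0% at 0 Gy and 22.2%, 22.8% and 25.0% at 10 Gy. TGFB3 was below the filter, at 0.626 and 0.911 FPKM on average, and made up 0.995 to 1.21% at 0 Gy and 1.67 to 1.91% at 10 Gy.

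**Figure D3:**
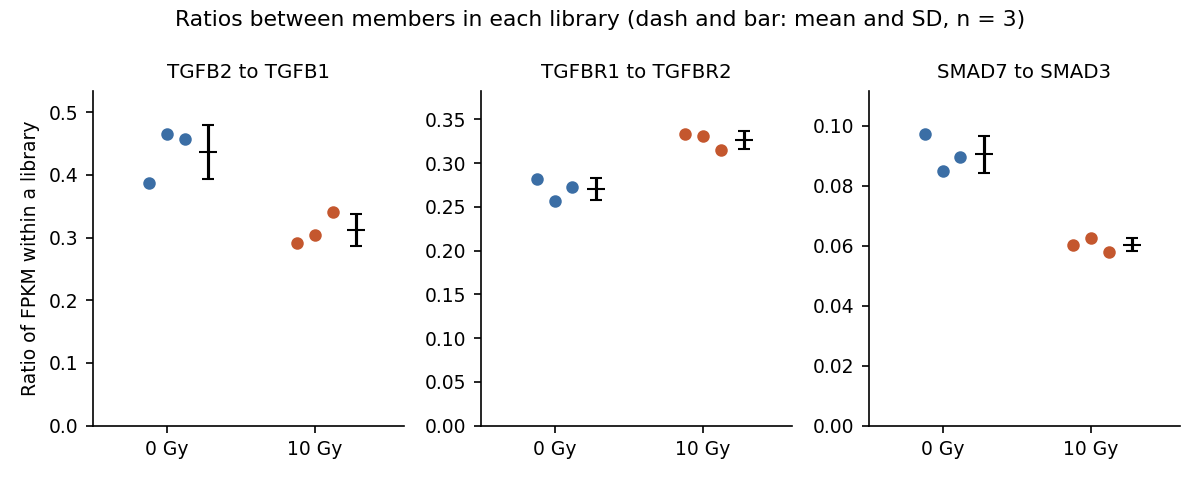
Ratios of FPKM within each library (vertical axis from 0) for TGFB2 to TGFB1, TGFBR1 to TGFBR2 and SMAD7 to SMAD3; points are libraries at 0 Gy (blue) and 10 Gy (orange), and the dash and bar give the mean and SD of 3 libraries. In each panel the points of the doses are apart, and SMAD7 to SMAD3 goes from between 0.0849 and 0.0972 to between 0.0581 and 0.0624.

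The rest of the pathway was described by 7 lists with 99 genes in all, of which 69 reached the filter. Of these 69, 19 were called higher, 14 lower and 36 not called, 12 were called with at least 1.3-fold, and the median change was 0.00. Over all genes tested, 11.9% were called higher, 23.7% lower and 5.77% with at least 1.3-fold. In either direction 47.8% of the 69 were called, against 35.6% of all genes tested. The share was 42.9% of the ligands tested, 33.3% each of receptors and SMADs, and 36.4% of latency and activation. It was 100% of the 4 inhibitors outside the cell that were tested, 46.7% of those inside and 54.2% of targets. Among the 69 the split between directions moved with the scaling: 25 higher and 8 lower with TPM, 25 and 9 with the upper quartile, 20 and 11 with median-of-ratios, and 22 and 11 with each library's own recovered reads. No called gene changed sign in any of the settings run. Of 14 ligands 7 were tested, 2 were called higher, 1 lower and 4 were not called, with a median of 0.12. GDF11, a ligand close to myostatin, rose from 3.95 ± 0.137 to 5.56 ± 0.186 FPKM (SD, n = 3 each, log2 change 0.41, limma adjusted p = 0.00115). BMP4, a ligand of the BMP branch that was named after its values were seen, rose from 25.1 ± 2.14 to 32.7 ± 1.38 FPKM (log2 change 0.37, limma adjusted p = 0.00467). Of 13 receptors 9 were tested, 3 were called higher and 6 were not called, with a median of 0.01. Beside TGFBR1 these were the co-receptor TGFBR3 (log2 change 0.19, limma adjusted p = 0.0357) and the BMP receptor BMPR2 (0.28, adjusted p = 0.0341), both named after their values were seen, and these calls were lost in 7 and in 4 of 16 other settings. Over all 16 other settings, with or without the call, the change of TGFBR3 ran from 0.14 to 0.31. Of 8 SMADs 6 were tested, with SMAD3 called higher, SMAD7 lower and 4 not called, and a median of -0.06. With TPM, the upper quartile and own recovered reads 2 SMADs were called higher and 1 lower. SMAD4, the common partner, was at 2.41 and 2.17 FPKM and was not called (limma adjusted p = 0.211).

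**Figure D4:**
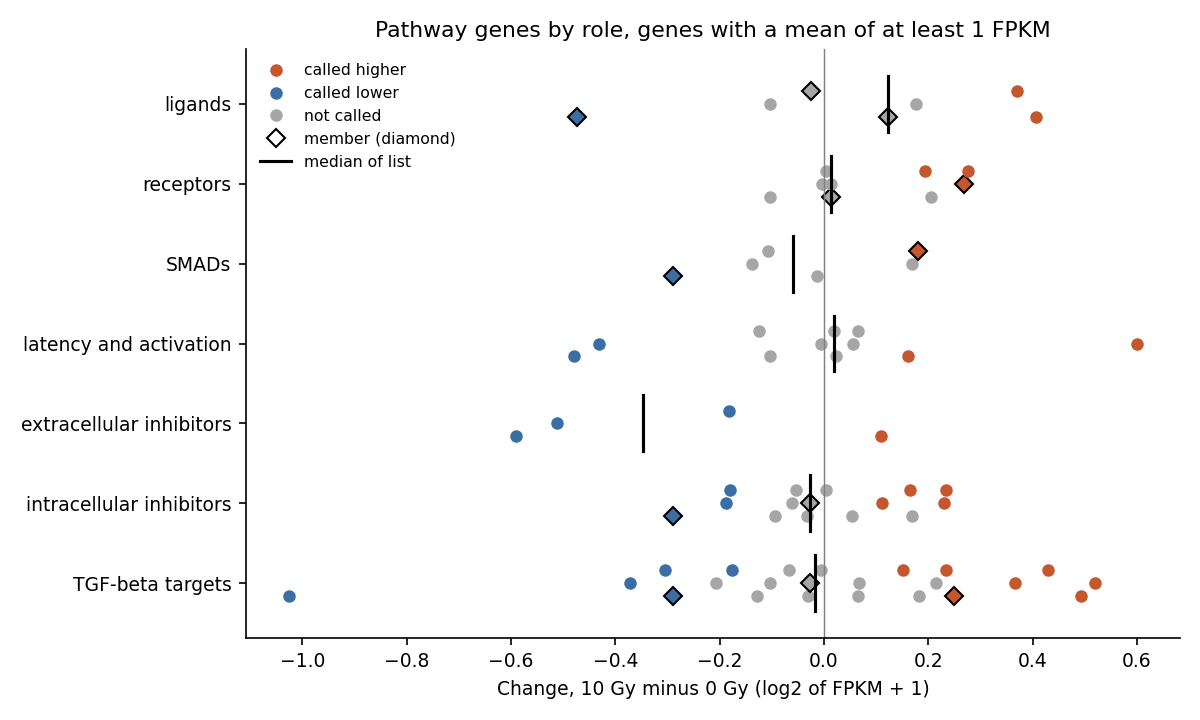
Change at 10 Gy against 0 Gy (horizontal axis, log2 of FPKM + 1) of the genes tested in 7 lists of the TGF-beta pathway, with 1 target left out (rows, where a gene may stand in more than 1 list); orange points were called higher, blue lower and grey not called, diamonds are the 9 members and vertical lines the medians of the lists. TGFB2 at -0.47 is the lowest of the ligands and TGFBR1 is among the 3 receptors called higher.

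The 15 genes of ligand latency and activation held 11 tested, of which 2 were called higher, 2 lower and 7 not called, with a median of 0.02. With TPM and with the upper quartile 3 of them were called higher and 1 lower. LTBP3, which holds latent TGF-beta in the matrix, rose from 3.63 ± 0.383 to 6.01 ± 0.251 FPKM (SD, n = 3 each, log2 change 0.60, limma adjusted p = 0.00117). PLAU, the urokinase protease, fell from 107 ± 9.65 to 79.3 ± 3.23 FPKM (log2 change -0.43, limma adjusted p = 0.00333). The protease gene MMP9 went from 1.99, 1.00 and 1.92 FPKM to 0.888, 0.844 and 0.8502 FPKM, a log2 change of -0.48 (limma adjusted p = 0.0444), and its call was lost in 10 of 15 other settings. With a pseudocount of 0.1 its change was -0.80.

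Of 11 inhibitors outside the cell only 4 were tested, with 3 called lower, 1 called higher and a median of -0.35; under each of the 4 other scalings 2 were called lower and 1 higher. NOG, which traps BMP ligands, fell from 14.4 ± 1.302 to 9.22 ± 0.162 FPKM (SD, n = 3 each, log2 change -0.59, limma adjusted p = 0.000964). FST, which traps activins, fell from 8.64 ± 0.780 to 5.76 ± 0.291 FPKM (log2 change -0.51, limma adjusted p = 0.00186). Of the 15 inhibitors inside the cell all were tested, with 4 called higher, 3 lower and 8 not called, a median of -0.03 and none past 1.3-fold; with TPM and with the upper quartile 6 were called higher and 1 lower. SMURF2, a ubiquitin ligase that works with SMAD7 and was named after its values were seen, fell from 39.8 ± 0.477 to 35.1 ± 0.614 FPKM (log2 change -0.18, limma adjusted p = 0.00397). Its change shrank to -0.05 with TPM, and its call was lost in 2 of 16 other settings, TPM and the upper quartile.

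The targets of TGF-beta moved in both directions, with 7 of the 24 tested called higher, 6 lower and 11 not called out of 30 listed, and a median of -0.02. With TPM 9 targets were called higher and 4 lower. CTGF, a matricellular protein of the connective tissue, was at 129, 116 and 111 FPKM at 0 Gy and at 60.4, 53.4 and 59.2 FPKM at 10 Gy (log2 change -1.03, limma adjusted p = 0.000428). Every irradiated library of CTGF stood below every control, opposite in direction to TGFBI. The cytokine IL11 rose from 75.03 ± 4.11 to 106 ± 4.44 FPKM (SD, n = 3 each, log2 change 0.49, limma adjusted p = 0.000862), and the transcriptional repressor BHLHE40 from 15.4 ± 1.65 to 22.5 ± 0.804 FPKM (0.52, adjusted p = 0.00249). SNAI1, a repressor of E-cadherin, rose from 1.95 ± 0.298 to 2.98 ± 0.385 FPKM (0.43, limma adjusted p = 0.0154), a call lost in 3 of 15 other settings. CDKN2B, a cell cycle inhibitor of the list, was listed at 0 in every library.

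**Figure D5:**
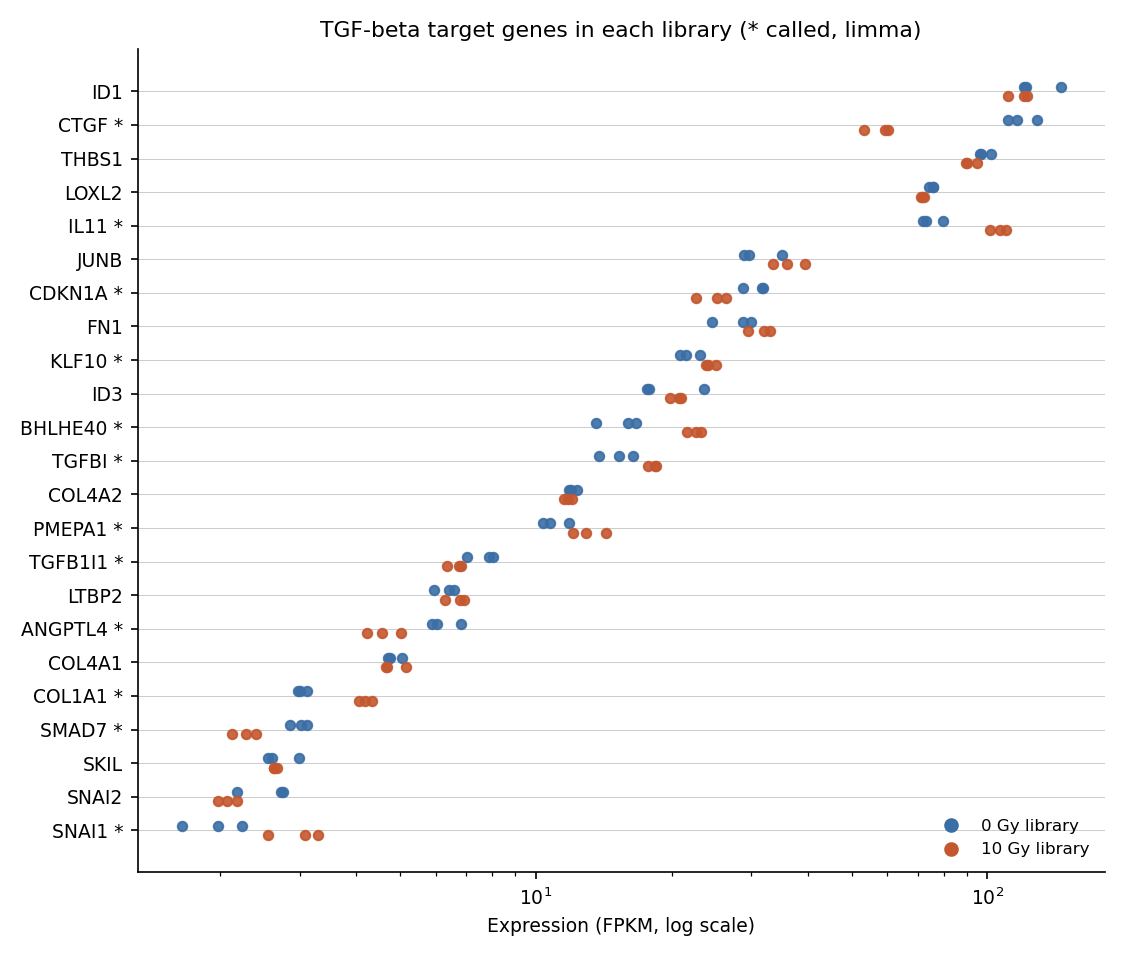
Expression (FPKM, horizontal log axis) of the TGF-beta target genes tested, with 1 left out, ordered by the mean at 0 Gy; blue points are libraries at 0 Gy, orange points libraries at 10 Gy, and a star marks a gene called by limma. CTGF lies to the left at 10 Gy, and IL11, BHLHE40 and TGFBI to the right.

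The genes closest in profile were found by the Euclidean distance between log2(FPKM + 1) values over the 6 libraries, each set to its own mean at 0 Gy, among 10491 protein-coding genes. Closest to TGFBR1 were LGR4 (distance 0.0356) and INPPL1 (0.0376), and LGR4 went from 14.8 to 17.9 FPKM. Closest to TGFB2 were GCLM (0.0812), SSR3 (0.0933) and NEDD4 (0.0946), and GCLM went from 32.6 to 23.4 FPKM. With 6 libraries in 2 groups such a distance mostly reads the size of the difference between doses.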

How the data were processed

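RNA-sequencing values of 6 MDA-MB-231 shSCR libraries were analysed, 3 at 0 Gy and 3 at 24 h after 10 Gy, grouped by the treatment in the labels. The authors deposited FPKM values per gene, made by a sequencing provider from polyA libraries, and their processing notes name HISAT2 and GRCh38. The counting program, its strand setting and the factor in each library's scaling are not given in the sources used here. Gene coordinates of 58724 of 58735 rows, and of all 9 members, equal those of GENCODE 29. Multiplying FPKM by length and implied depth gave whole reads (tolerance 0.01) for 100% of values. These reads were used for depth, for the reads quoted per gene and to draw the simulated data. Libraries of 1 dose correlated across genes at 0.992 or more while the highest value between doses was 0.9886, as a description only.

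FPKM were compared with limma 3.58.1 in R 4.3.3 on log2(FPKM + 1), with an intensity trend, two-sided, over genes whose mean reached 1 FPKM. This scale understates changes of low genes. The procedure was tested on simulated data. Ratios were compared by exact permutation. The members, lists and tests were chosen with earlier results of these data known. Genes named are the members, called list genes of at least 1.3-fold without overlap (up to 5 per list), genes that overlap a member, the 3 nearest profiles of the member with the largest rise and of that with the largest fall, and those said to be named after their values were seen. Promoter sequences are from RefSeq (GRCh38.p14). Alternatives covered the pseudocount, the filter, scaling, the replicate block, the trend, protein-coding genes alone and each library left out. Scaling to each library's own recovered reads was added after seeing the data. Figures used Python 3.11.15 and matplotlib 3.10.9. Cells with MAFF knockdown were not analysed here, and single genes of the lists, markers and nearest profiles are counted but not reported here.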

Additional observations from a re-analysis of the deposited data

How the results depend on the processing

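Over 16 alternatives, the changes of members kept their direction and their side of the threshold in 125 values, lost a call in 3, all of TGFBI, and turned sign in 13, all of TGFB1, SKIL or TGFBR2, none of which was called. The log2 change of TGFB1 was 0.0998 with TPM, 0.0642 with the upper quartile, 0.0215 with median-of-ratios and 0.0476 with own recovered reads, and ran from -0.0548 to 0.0244 with 1 library left out. That of SKIL was 0.0660, 0.0395, 0.00763 and 0.0271 in the same order, and from -0.0595 to 0.0251 with 1 library left out. That of TGFBR2 ran from -0.0120 to 0.0567 with 1 library left out. The other named genes held in 255 values and lost a call in 13, of which 10 were of MMP9 and 3 of SNAI1. The cause was not tested.

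The number of genes called, 4317, ran from 2660 to 3993 with 1 library left out, with 2705 without irradiated library 1 and 2660 without irradiated library 2, fits with fewer samples. Without a filter it was 2912 of 31650 genes. The share of calls that were higher was 33.4%, and 74.5% with TPM, 63.9% with the upper quartile, 48.8% with median-of-ratios and 58.2% with own recovered reads. Of the pathway lists 33 genes were called, 21 without a filter and from 20 to 33 with 1 library left out, the lowest without irradiated library 2. Members called numbered 4 or 5 in every setting.

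Libraries with the same number did not deviate together (correlations -0.0405, -0.0349 and -0.1011), so the numbers were not read as pairs. With the replicate block 3503 genes, 5 members and 27 list genes were called. At a mean of at least 5 FPKM, SMAD7, SKIL and INHBA were not tested. INHBA, SMAD7 and SKIL rest on 160 to 611 reads per library, which limits their precision.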
